A study of Mus musculus with 10 samples.

Results

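Chromatin accessibility at 10 genes of the hypoxia-inducible factor (HIF) pathway was examined in group 2 innate lymphoid cells (ILC2s) of 5 mouse tissues. The genes were *Epas1*, *Hif1a*, *Vhl*, *Egln1*, *Egln3*, *Bnip3*, *Slc2a1*, *Ldha*, *Vegfa* and *Ddit4*. An open chromatin region (OCR) of the deposited mm10 table was assigned to a gene when its centre lay inside the gene or when the transcription start site (TSS) nearest to it in RefSeq was that of the gene. This gave 68 of the 50039 OCRs, of which 26 lay inside the gene, 66 had their nearest TSS there and 24 met both conditions. Assignment by distance or position is a rule of naming, and which gene an OCR acts on was not measured.

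Sorted ILC2s came from lung, pancreas, bone marrow (BM), small intestine (SI) and large intestine (LI) of wild-type C57BL/6 male mice aged 6 weeks, and ATAC-seq, in which a transposase cuts and tags accessible DNA, was run on 2 libraries of 50000 cells per tissue. A library of BM, lung or pancreas pooled 16 mice and one of LI or SI 10. The BM gate was Lin–ST2+CD25+. The gate of LI, lung and pancreas was Lin–CD45+CD127+ST2+CD25+. The SI gate used KLRG1, CD127, CD45 and Thy1 and did not use ST2, and BM cells were sorted on a different instrument. Gate and instrument cannot be told apart from tissue in comparisons with BM, nor the gate in those with SI, while LI, lung and pancreas shared both. Tissue digestion was shared by LI and SI and cannot be told apart from tissue in the other comparisons. In bulk libraries a smaller share of cells with an open region and less accessibility per cell cannot be told apart either.

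ILC2s are innate lymphocytes that make type 2 cytokines in barrier and internal tissues. HIF is a heterodimer of an oxygen-sensitive alpha subunit, encoded by *Hif1a* or *Epas1* (HIF-2 alpha), with the stable beta subunit ARNT. When oxygen is present, the prolyl hydroxylases encoded by the *Egln* genes modify the alpha subunit, which the *Vhl* product then marks for degradation. When oxygen is scarce the alpha subunit persists, and the dimer binds hypoxia response elements near target genes of glucose uptake, glycolysis, mitophagy, vessel growth and mTOR control.

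The sequences of the 3 OCRs with the smallest p-values over the 5 tissues come first. Each is the central 300 bases in mm10, plus strand. Capitals mark the motif letters found: TGTGGT (RUNX), TGANTCA (AP-1) and the HRE core ACGTG or GCGTG, searched on both strands. The first, at chr17:86710007-86710306, lies 43.7 kb upstream of *Epas1* between genes, and 21.6% of the whole OCR is repeat-masked sequence. The next, at chr17:86782860-86783159, lies in intron 1 of *Epas1*, and the last, at chr4:119125891-119126190, in intron 2 of *Slc2a1*.
Epas1 -43.7 kb: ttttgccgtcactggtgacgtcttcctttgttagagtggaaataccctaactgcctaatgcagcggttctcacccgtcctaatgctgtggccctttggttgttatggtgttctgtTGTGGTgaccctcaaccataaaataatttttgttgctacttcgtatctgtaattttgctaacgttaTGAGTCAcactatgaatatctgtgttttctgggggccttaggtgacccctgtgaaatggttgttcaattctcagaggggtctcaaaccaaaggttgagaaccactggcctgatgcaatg
Epas1 +29.1 kb: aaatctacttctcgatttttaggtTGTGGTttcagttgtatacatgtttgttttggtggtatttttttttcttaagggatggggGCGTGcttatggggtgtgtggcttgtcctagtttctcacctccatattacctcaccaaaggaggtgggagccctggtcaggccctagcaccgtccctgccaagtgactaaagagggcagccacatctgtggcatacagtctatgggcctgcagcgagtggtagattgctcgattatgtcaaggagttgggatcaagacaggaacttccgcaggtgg
Slc2a1 +17.3 kb: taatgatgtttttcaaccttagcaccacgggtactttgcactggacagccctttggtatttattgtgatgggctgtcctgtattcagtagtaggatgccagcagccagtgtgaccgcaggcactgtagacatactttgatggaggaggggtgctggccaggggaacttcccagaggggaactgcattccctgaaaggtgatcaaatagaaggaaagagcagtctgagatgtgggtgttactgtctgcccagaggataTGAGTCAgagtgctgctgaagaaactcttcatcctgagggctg
In these 300 bases, the *Epas1* -43.7 kb OCR held 1 RUNX and 1 AP-1 match and the *Epas1* +29.1 kb OCR 1 RUNX match and 1 HRE core. The *Slc2a1* +17.3 kb OCR held 1 AP-1 match there. Outside the printed bases, the *Epas1* -43.7 kb and *Slc2a1* +17.3 kb OCRs each held 1 HRE core.

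To show HRE cores at target genes, the 250 bases before the start of *Ldha* (chr7:46845554-46845803, plus strand) and *Bnip3* (chr7:138909507-138909756, minus strand) are given from RefSeq starts on GRCm38. Of the starts searched, these 2 held the most matches, 7 and 5 in the 300 bases around the start. The other starts of target genes held 2 each, or 0 at 1 *Vegfa* start. Capitals mark HRE cores on either strand, including those within the E-box CACGTG, which contains ACGTG.
Ldha: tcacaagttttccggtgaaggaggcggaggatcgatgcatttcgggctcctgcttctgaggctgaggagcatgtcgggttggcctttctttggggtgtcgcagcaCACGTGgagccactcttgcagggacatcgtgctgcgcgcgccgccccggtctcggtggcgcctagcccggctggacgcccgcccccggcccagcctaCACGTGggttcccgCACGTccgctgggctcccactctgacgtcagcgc
Bnip3: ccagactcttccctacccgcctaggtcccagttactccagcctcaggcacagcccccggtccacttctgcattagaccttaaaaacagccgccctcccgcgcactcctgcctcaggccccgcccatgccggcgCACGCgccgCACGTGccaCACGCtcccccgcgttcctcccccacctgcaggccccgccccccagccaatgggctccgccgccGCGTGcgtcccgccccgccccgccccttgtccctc
Among the 11 RefSeq starts that the promoter table holds for 9 of these genes, 9 (81.8%) had an HRE core in the 300 bases around the start, against 43.8% of 32851 promoters. The starts without one were that of *Vhl* and 1 of the 2 *Vegfa* starts. The promoters compared were not matched for GC content. The E-box was in 3 of 11 starts (27.3%, all promoters 7.15%), the GATA letters AGATAA in 1 (9.09%, all 11.2%), RUNX in 1 (9.09%, all 16.8%) and AP-1 in 0 (all 7.81%).

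Among the 68 OCRs themselves, the central 300 bases held an HRE core in 31 (45.6%), against 42.9% of all OCRs. Of the 37 OCRs that differed over the tissues, as described next, 12 held it (32.4%, all OCRs that differed 39.3%). AP-1 letters were in 19 of 68 (27.9%, all OCRs 18.3%) and in 15 of the 37 (40.5%, all that differed 25.8%). GATA letters were in 13 of 68 (19.1%, all 17.2%) and 9 of the 37 (24.3%, all that differed 22.3%), RUNX letters in 14 of 68 (20.6%, all 29.1%) and 9 of the 37 (24.3%, all that differed 34.6%), and the E-box in 4 of 68 (5.88%, all 6.74%) and 2 of the 37 (5.41%, all that differed 6.77%). These are letter matches and not sites of binding.

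Libraries held 10282987 to 32797872 counts, the 68 OCRs took 0.0977 to 0.143% of them, and Spearman's rho between the libraries of a tissue ran from 0.927 (SI) to 0.975 (lung). All 68 OCRs had counts in every library, with a lowest value of 7. Of 10 ILC2 markers, 9 had a promoter OCR (all but *Il17rb*), and their summed level was 233 to 398 CPM (counts per library scaled to a common total) per library. Of 46 markers of 10 other cell types, 7 had one. No endothelial marker of 8 had one, and the summed level of myeloid markers, of which 2 of 6 had one, was 8.55 to 25.8 CPM and was highest in SI replicate 1. The promoter OCR of *Il1rl1*, which encodes ST2, was lowest in SI (4.53 and 3.55 CPM).

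Over the 5 tissues, 37 of the 68 OCRs (54.4%) differed at an adjusted p under 0.05 (edgeR quasi-likelihood F test, Benjamini-Hochberg over 49981 OCRs), where 44.2% of all tested OCRs did. By class, 2 of 8 promoter OCRs were called (25.0%, all promoters 30.9%), 19 of 30 intragenic OCRs (63.3%, all 46.8%) and 16 of 30 intergenic OCRs (53.3%, all 48.1%). A promoter OCR has its centre at most 100 bp past a TSS, so some OCRs at gene starts count as intragenic. These include the called *Egln3* OCR centred 149 bp past its start. They also include those of *Slc2a1* (221 bp) and *Vhl* (321 bp), which were not called. *Epas1* had 8 called OCRs of 13, *Hif1a* 8 of 15, *Ddit4* 9 of 13, *Egln3* 5 of 7, *Slc2a1* 3 of 5, *Ldha* 3 of 6 and *Egln1* 1 of 4. None of the single *Vhl* OCR, the 2 *Bnip3* OCRs or the 2 *Vegfa* OCRs was called. Of the 37 called OCRs, 18 were lowest in BM (48.6%, all called OCRs 34.3%) and 12 were highest in LI (32.4%, all called OCRs 18.5%). The others were highest in BM (8, or 21.6%, all called OCRs 25.5%), SI (8, or 21.6%, all 23%), lung (5, or 13.5%, all 13.6%) and pancreas (4, or 10.8%, all 19.5%). Of the 37 calls, 20 were made under every one of 16 other settings.

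**Figure D1:**
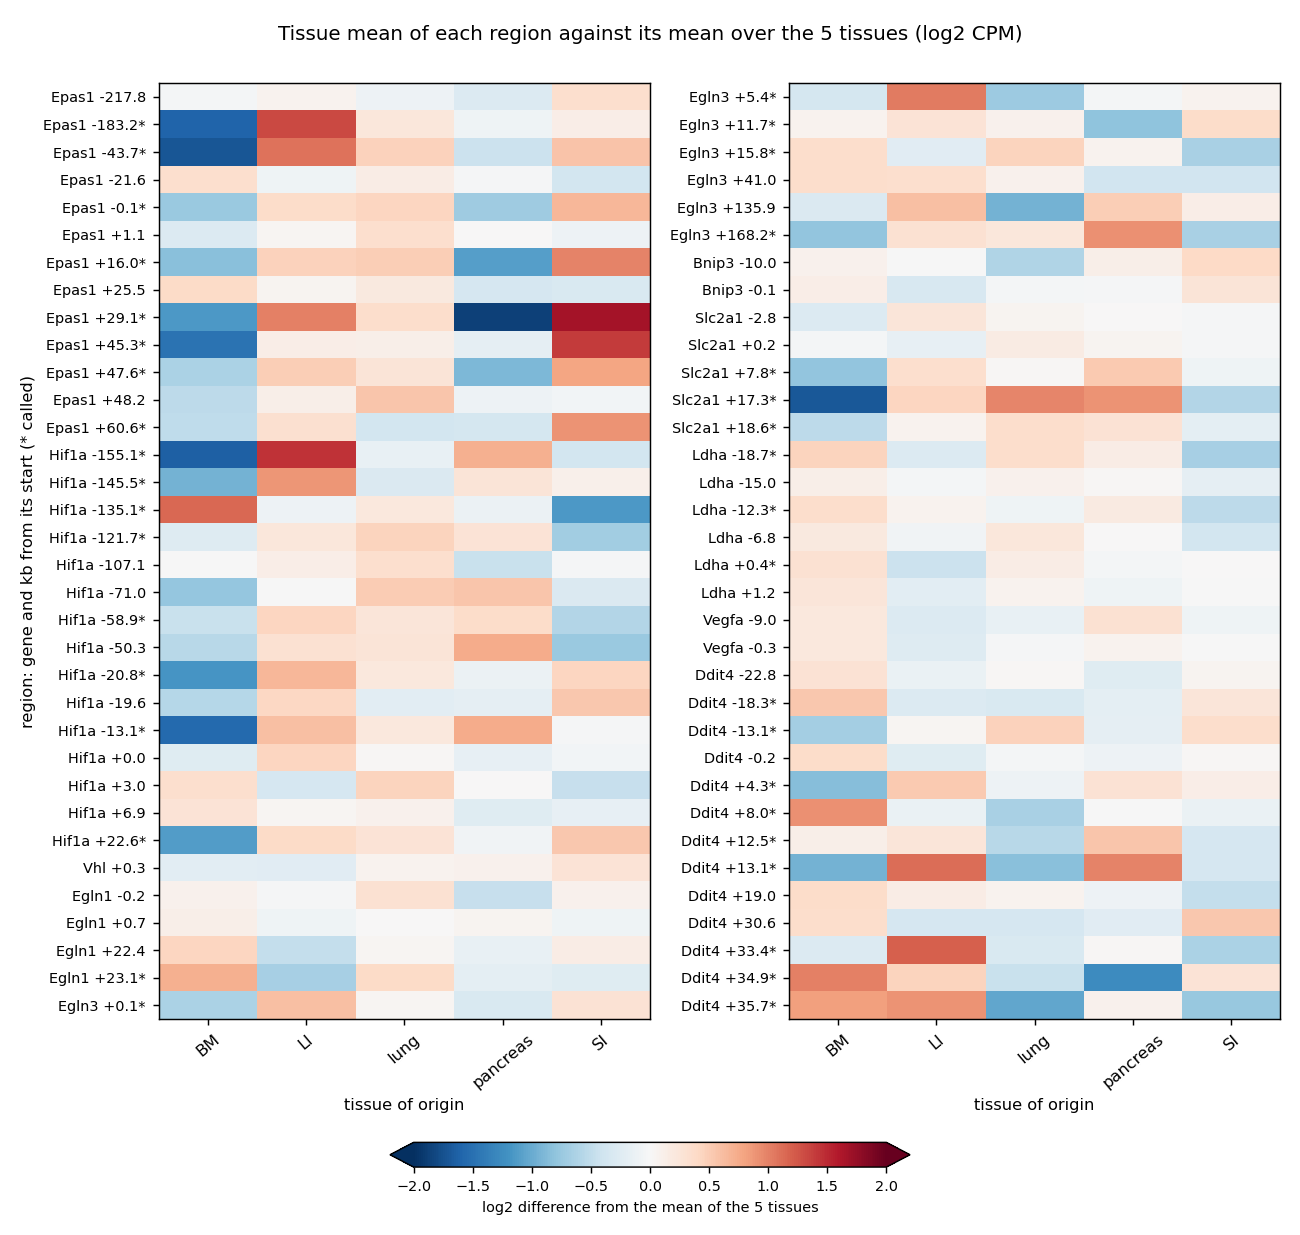
Tissue mean of each of the 68 OCRs (rows, by gene and kb from the gene's start) as a log2 difference in CPM from its mean over the 5 tissues (columns), with an asterisk where the OCR was called. Blue BM cells stand at most called OCRs of *Epas1*, *Hif1a* and *Slc2a1*, while rows of *Vegfa*, *Bnip3* and *Vhl* stay pale.

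The summed accessibility of a gene's OCRs, on the same scale, was called for 5 of the 10 genes, where 41.4% of 17493 genes were called. The 5 were *Slc2a1* (adjusted p = 0.00289), *Epas1* (0.00437), *Egln1* (0.00925), *Ldha* (0.0333) and *Egln3* (0.0481), all by edgeR. *Epas1*, *Slc2a1* and *Egln1* were called under every other setting. Per kb of OCR, the mean level on the CPM scale was highest for *Slc2a1* (47.7) and *Ldha* (41.1), then *Vhl* (31.8), *Bnip3* (30.5), *Epas1* (28.8), *Ddit4* (28.7), *Hif1a* (26.3), *Vegfa* (24.9), *Egln3* (18.8) and *Egln1* (15.2). Neighbours in this order were not tested against each other.

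**Figure D2:**
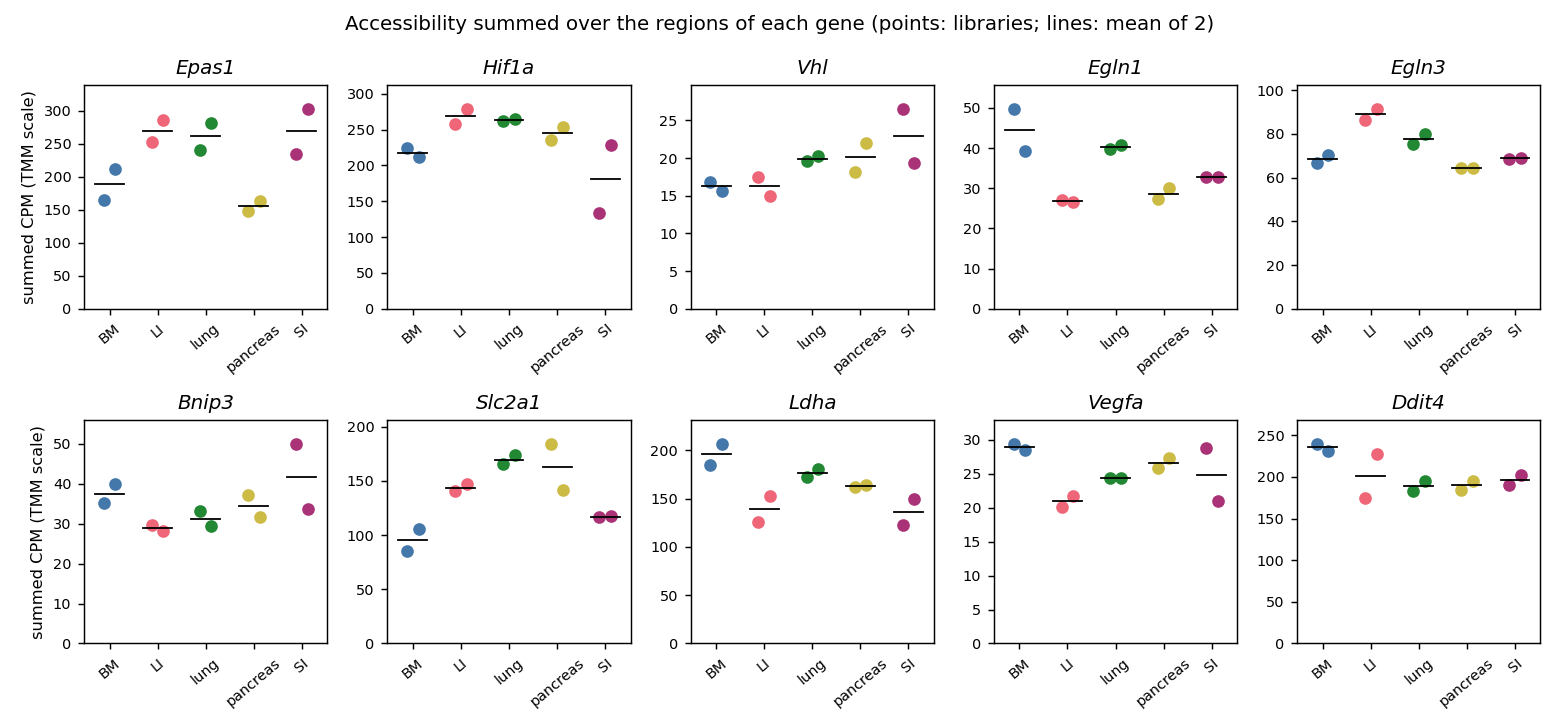
Summed CPM (vertical axes, from 0) of the OCRs of each of the 10 genes in each library (points) with the mean of the 2 libraries of a tissue (lines). *Epas1* is low in BM and pancreas, *Slc2a1* in BM and SI, *Egln1* is high in BM and lung, and the SI libraries of *Hif1a* lie far apart (134 and 229 CPM).

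*Epas1* spans chr17:86753864-86833410 on the plus strand, and its accessibility was lower in pancreas than in LI, lung and SI and lower in BM than in LI and SI. Summed over its 13 OCRs, the libraries held 165 and 212 CPM in BM, 252 and 286 in LI, 235 and 303 in SI, 240 and 282 in lung and 148 and 163 in pancreas. Both BM libraries and both pancreas libraries lay below every library of LI, lung and SI. The log2 difference was 0.79 ± 0.17 (SE) for LI over pancreas (adjusted p = 0.0228), 0.79 ± 0.17 for SI over pancreas (0.00492), 0.75 ± 0.17 for lung over pancreas (0.0208) and 0.51 ± 0.17 for SI over BM (0.0434). BM against LI was -0.51 ± 0.17 (adjusted p = 0.0286), and BM against lung, at -0.47 ± 0.17, was not called (adjusted p = 0.0696).

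The *Epas1* promoter OCR, 0.1 kb upstream of the start (chr17:86753146-86754456), was likewise lower in BM and pancreas than in LI, lung and SI. It held 30.9 and 30.8 CPM in BM, 60.3 and 72.0 in LI, 84.1 and 79.9 in SI, 62.0 and 76.6 in lung and 35.6 and 27.2 in pancreas. The SI libraries were the highest, and no BM or pancreas library overlapped those of the other 3 tissues. SI exceeded BM by 1.41 ± 0.20 on the log2 scale (adjusted p = 9.78e-05) and pancreas by 1.38 ± 0.20 (adjusted p = 0.000142). It was 1 of the 2 called OCRs of the promoter class, which leaves out the called OCR at the start of *Egln3*.

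The *Epas1* -43.7 kb OCR (chr17:86709764-86710548), printed above, differed most between BM and LI. Its values were 5.04 and 6.90 CPM in BM, 38.0 and 45.0 in LI, 23.8 and 34.1 in SI, 23.1 and 30.7 in lung and 12.8 and 16.3 in pancreas. BM was below every other library, pancreas came next, and lung and SI overlapped. BM was lower than LI by a log2 difference of -2.80 ± 0.26 (adjusted p = 3.8e-06), a 6.95-fold gap, and lower than pancreas by -1.27 ± 0.26 (adjusted p = 0.00274). A weaker OCR 183.2 kb upstream, inside intron 11 of *Prkce* (chr17:86570370-86570879), held 0.587 and 0.920 CPM in BM, 4.79 and 6.65 in LI, 2.41 and 2.61 in SI, 2.39 and 2.98 in lung and 2.18 and 2.16 in pancreas. LI was the highest and BM the lowest there too, with a log2 difference of -2.92 ± 0.43 for BM against LI (adjusted p = 0.000144).

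Within the gene, the 5 called OCRs were all highest in SI. At +29.1 kb (chr17:86782759-86783259) the libraries held 2.54 and 1.79 CPM in BM, 9.15 and 10.4 in LI, 12.3 and 18.4 in SI, 5.61 and 6.68 in lung and 1.24 and 1.40 in pancreas. No libraries of any 2 tissues overlapped at this OCR, whose printed sequence carries the HRE core GCGTG. SI exceeded pancreas by 3.55 ± 0.35 (adjusted p = 4.35e-06), an 11.6-fold gap and the largest fold among the 68 OCRs, and exceeded lung by 1.32 ± 0.28 (adjusted p = 0.00309). LI exceeded pancreas by 2.90 ± 0.35 (adjusted p = 0.000378).

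The *Epas1* +45.3 kb OCR in intron 2 was weak, at 0.979 and 1.01 CPM in BM, 2.53 and 3.56 in LI, 8.38 and 6.27 in SI, 2.39 and 3.59 in lung and 0.766 and 4.10 in pancreas. Both SI libraries were above all others, and the pancreas libraries lay apart. SI exceeded BM by 2.87 ± 0.55 (adjusted p = 0.00122). The OCRs at +16.0 kb, +47.6 kb and +60.6 kb, named after their values were seen, were also highest in SI, with adjusted p over the tissues of 0.00011, 0.00234 and 0.0356, and the last of these was called in 9 of 16 other settings.

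The strongest *Epas1* OCR, at +25.5 kb in intron 1 and likewise named after its values were seen, did not share this order. It took 36.3% of the counts of the gene and held 89.8 and 125 CPM in BM, 79.4 and 92.7 in LI, 45.2 and 88.4 in SI, 91.4 and 97.5 in lung and 62.7 and 68.7 in pancreas. BM was highest in the mean, the SI libraries were far apart, and the OCR was not called (adjusted p = 0.0915). It was called in 5 of 16 other settings. The level per kb was 163 CPM here and 42.7 CPM at the promoter.

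**Figure D3:**
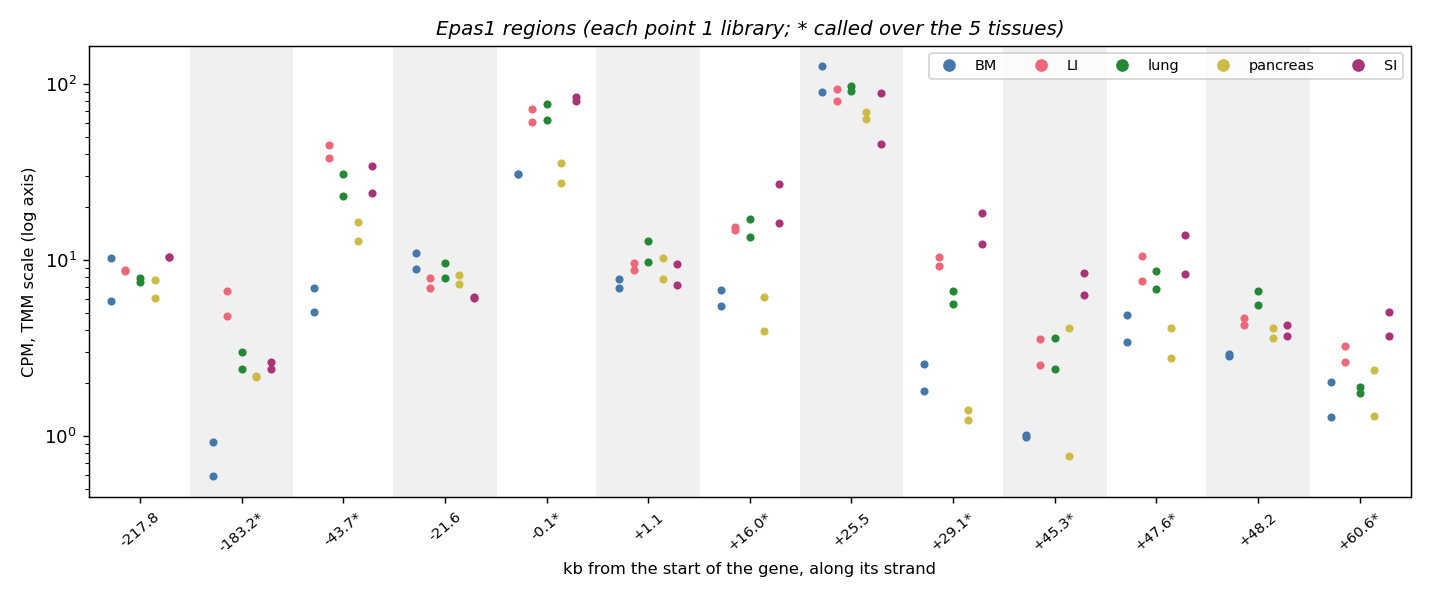
CPM (log axis) of the 13 *Epas1* OCRs, ordered by kb from the start of the gene, with 1 point per library coloured by tissue and an asterisk at called OCRs. BM points are lowest at -183.2 and -43.7 kb, pancreas and BM points at -0.1, +16.0 and +29.1 kb, and the order is not seen at +25.5 kb.

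The 5 genes whose summed log2 CPM over the 10 libraries was most like that of *Epas1* were *Prep* (Pearson r = 0.94), *Htra3* (0.93), *Plekhf1* (0.92), *Pxdc1* (0.92) and *Dkk3* (0.92). The libraries are 5 pairs of 1 tissue each and share depth differences, so these values are a description.

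*Hif1a*, on the plus strand of chr12:73901324-73947554, encodes the broadly used alpha subunit. Its 15 OCRs together held 224 and 212 CPM in BM, 259 and 279 in LI, 134 and 229 in SI, 261 and 265 in lung and 236 and 254 in pancreas. The SI libraries differed from each other by more than the means of the other 4 tissues did, and the gene was not called (adjusted p = 0.101). Without SI replicate 2 the adjusted p was 0.00107, with DESeq2 it was 0.0362 and with TMM factors of the gene sums 0.0413.

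The starts of *Hif1a* varied little. The promoter OCR at the first start held 4.06 and 3.13 CPM in BM, 5.67 and 5.78 in LI, 3.71 and 4.49 in SI, 4.04 and 4.64 in lung and 2.59 and 4.96 in pancreas (adjusted p = 0.421). The strong OCR at +6.9 kb, 316 bp past the second start and named after its values were seen, took 37.3% of the counts of the gene, with 110 and 94.2 CPM in BM, 76.9 and 97.8 in LI, 55.8 and 95.9 in SI, 88.7 and 90.5 in lung and 80.1 and 63.2 in pancreas. The SI range overlapped that of each other tissue, and the OCR was not called (adjusted p = 0.328).

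Distal OCRs of *Hif1a* differed, and mostly with BM at the low end. The -13.1 kb OCR (chr12:73887941-73888501) held 1.86 and 2.21 CPM in BM, 7.32 and 10.9 in LI, 3.23 and 8.57 in SI, 7.80 and 6.07 in lung and 9.54 and 10.5 in pancreas. BM was below every other library, and the SI libraries were far apart. BM was lower than pancreas by -2.29 ± 0.40 (adjusted p = 0.000788). At -155.1 kb, in intron 10 of *Prkch* (chr12:73745990-73746490), values were 0.979 and 0.598 CPM in BM, 8.02 and 5.34 in LI, 1.20 and 2.58 in SI, 2.2 and 2.21 in lung and 2.36 and 5.61 in pancreas. BM was lowest and was lower than LI by -3.07 ± 0.53 (adjusted p = 0.000478).

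The *Hif1a* +22.6 kb OCR in intron 1 held 1.61 and 1.79 CPM in BM, 3.92 and 5.69 in LI, 4.19 and 6.55 in SI, 3.49 and 5.41 in lung and 3.12 and 3.88 in pancreas. Every BM value was below every other, and SI exceeded BM by 1.66 ± 0.38 (adjusted p = 0.00412). The opposite order was seen at -135.1 kb, in intron 12 of *Prkch* (chr12:73765860-73766596), with 9.05 and 7.82 CPM in BM, 4.88 and 2.26 in LI, 2.31 and 1.15 in SI, 4.04 and 4.80 in lung and 3.06 and 3.99 in pancreas. BM was above every other library, and SI was lower than BM by -2.30 ± 0.41 (adjusted p = 0.000683).

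A different order held at the strong intergenic *Hif1a* OCRs, which were named after their values were seen. The -58.9 kb OCR held 44.0 and 50.0 CPM in BM, 89.4 and 83.7 in LI, 27.4 and 57.7 in SI, 76.7 and 74.2 in lung and 72.4 and 92.5 in pancreas. BM and SI were both below the other 3 tissues, and SI was lower than LI by -1.02 ± 0.26 (adjusted p = 0.0218). SI was also lowest at -121.7 kb, by -1.13 ± 0.23 against lung (adjusted p = 0.00202).

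Among the genes that degrade the alpha subunit, *Vhl*, the substrate receptor of the ubiquitin ligase, had a single OCR, over coding exon 1 (chr6:113624015-113624616). It held 16.9 and 15.7 CPM in BM, 17.5 and 14.9 in LI, 26.5 and 19.3 in SI, 19.6 and 20.3 in lung and 18.2 and 22.0 in pancreas. The values of SI, lung and pancreas overlapped, and the OCR was not called (adjusted p = 0.239). As a gene, *Vhl* had an adjusted p of 0.209, and of 0.0232 when libraries were scaled by size alone.

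*Egln1*, the main prolyl hydroxylase of HIF, was most accessible in BM and lung. Its 4 OCRs summed to 49.8 and 39.2 CPM in BM, 27.2 and 26.7 in LI, 32.9 and 32.8 in SI, 39.8 and 40.9 in lung and 27.4 and 30.0 in pancreas. LI was lowest, and BM exceeded LI by 0.72 ± 0.17 (adjusted p = 0.00482). The largest difference among its OCRs was at +23.1 kb in intron 1 (chr8:124925842-124926467), with 22.2 and 17.9 CPM in BM, 7.76 and 7.82 in LI, 10.4 and 10.6 in SI, 14.0 and 18.3 in lung and 9.72 and 11.9 in pancreas. BM and lung overlapped each other and lay above the rest, and BM exceeded LI 2.58-fold (adjusted p = 0.000665). The *Egln1* promoter OCR (chr8:124949163-124949750) held 14.4 and 8.97 CPM in BM, 11.2 and 10.5 in LI, 11.7 and 11.8 in SI, 15.8 and 11.5 in lung and 9.95 and 6.15 in pancreas, with overlapping tissues and no call (adjusted p = 0.284).

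*Egln3* encodes a hydroxylase that is itself induced by HIF. Its 7 OCRs summed to 66.6 and 70.5 CPM in BM, 86.6 and 91.4 in LI, 68.4 and 69.2 in SI, 75.5 and 79.8 in lung and 64.2 and 64.4 in pancreas. LI was highest (adjusted p over the tissues 0.0481). The call was lost when any 1 of the 8 libraries of BM, LI, lung and pancreas was left out, with adjusted p from 0.0547 to 0.221. At the start of *Egln3*, the OCR over the 5′ UTR (chr12:54203380-54204070) held 14.1 and 14.4 CPM in BM, 32.7 and 34.4 in LI, 29.1 and 24.8 in SI, 21.1 and 24.6 in lung and 18.0 and 17.9 in pancreas. No libraries of different tissues overlapped, with LI highest and BM lowest, and BM was lower than LI by -1.23 ± 0.20 (adjusted p = 0.000337).

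Intronic OCRs of *Egln3* each followed an order of their own. The +5.4 kb OCR (chr12:54198228-54198740) held 2.64 and 2.85 CPM in BM, 6.63 and 7.69 in LI, 3.51 and 3.83 in SI, 1.69 and 2.54 in lung and 2.06 and 4.75 in pancreas. LI was above every other library and exceeded lung by 1.75 ± 0.39 (adjusted p = 0.00823), a call lost without LI replicate 2 (0.0571) or lung replicate 1 (0.0787). At +11.7 kb the values were 11.3 and 12.1 CPM in BM, 11.9 and 15.0 in LI, 13.6 and 15.1 in SI, 11.6 and 12.1 in lung and 7.24 and 5.50 in pancreas. Pancreas was below every other library, and SI exceeded it by 1.16 ± 0.25 (adjusted p = 0.00347), or 0.0509 without pancreas replicate 2. The +15.8 kb OCR, named after its values were seen, was lowest in SI, by -1.09 ± 0.24 against lung (adjusted p = 0.00359).

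Of the target genes, *Slc2a1*, the glucose transporter GLUT1, showed the smallest p of the 68 OCRs. The +17.3 kb OCR in intron 2 (chr4:119125697-119126383), whose sequence is printed above, held 8.27 and 8.33 CPM in BM, 34.3 and 37.8 in LI, 15.2 and 20.7 in SI, 45.8 and 59.8 in lung and 53.5 and 46.5 in pancreas. BM was lowest, SI came next and neither overlapped another tissue. BM was lower than lung by -2.67 ± 0.22 (adjusted p = 2.46e-06), SI was lower than lung by -1.56 ± 0.21 (adjusted p = 9.02e-05) and SI was higher than BM by 1.11 ± 0.22 (adjusted p = 0.0014). Its nearest TSS is that of *Gm12867*, so it belongs to *Slc2a1* by position inside the gene only.

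The neighbouring *Slc2a1* +18.6 kb OCR, named after its values were seen, held 16.8 and 19.7 CPM in BM, 23.3 and 32.1 in LI, 22.1 and 23.5 in SI, 32.5 and 34.4 in lung and 36.5 and 27.8 in pancreas. This OCR, too, belongs to *Slc2a1* by position inside the gene only. BM was again below all other libraries, by -0.87 ± 0.22 against lung (adjusted p = 0.00905). Accessibility over coding exon 1, at +0.2 kb and named in the same way, did not differ beyond its spread, with 36.9 and 42.2 CPM in BM, 35.6 and 36.3 in LI, 40.6 and 39.2 in SI, 47.2 and 43.0 in lung and 51.9 and 32.5 in pancreas (adjusted p = 0.686). Summed over its 5 OCRs, *Slc2a1* held 85.6 and 106 CPM in BM, 141 and 147 in LI, 117 and 117 in SI, 166 and 174 in lung and 184 and 141 in pancreas. BM was lowest and SI next, and BM was lower than lung by -0.83 ± 0.15 (adjusted p = 0.00195).

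*Ldha*, the lactate dehydrogenase subunit of glycolytic cells, went the other way, with its 3 called OCRs highest in BM. Summed over 6 OCRs it held 185 and 207 CPM in BM, 125 and 153 in LI, 123 and 150 in SI, 173 and 181 in lung and 162 and 164 in pancreas. BM was highest and LI and SI overlapped at the low end, and SI was lower than BM by -0.52 ± 0.15 (adjusted p = 0.0223). The gene's own call (0.0333) was lost without any 1 of 8 libraries, all but LI replicate 2 and SI replicate 2, with adjusted p from 0.0522 to 0.118. The *Ldha* promoter OCR (chr7:46845631-46846709), which overlaps the printed promoter, held 56.4 and 57.2 CPM in BM, 29.9 and 38.6 in LI, 44.3 and 47.9 in SI, 51.0 and 51.0 in lung and 44.2 and 45.6 in pancreas. It was called (adjusted p = 0.0369, and in 8 of 16 other settings), with BM above LI by 0.73 ± 0.18 (adjusted p = 0.00716, and 0.0913 without LI replicate 1). At -18.7 kb (chr7:46826880-46827405) the values were 32.6 and 37.9 CPM in BM, 17.0 and 25.9 in LI, 12.9 and 19.6 in SI, 32.4 and 33.6 in lung and 28.2 and 29.0 in pancreas. SI and LI were below the other tissues, and SI was lower than BM by -1.11 ± 0.24 (adjusted p = 0.00274).

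*Bnip3*, a mitophagy receptor, had no called OCR. Its promoter OCR (chr7:138909340-138909922) held 29.2 and 31.6 CPM in BM, 22.8 and 21.7 in LI, 40.1 and 25.8 in SI, 28.1 and 25.6 in lung and 30.0 and 24.3 in pancreas (adjusted p = 0.251). LI was below the other tissues, and the SI libraries were far apart. The *Bnip3* -10.0 kb OCR held 6.02 and 8.24 CPM in BM, 6.89 and 6.43 in LI, 9.97 and 7.70 in SI, 4.94 and 3.95 in lung and 7.18 and 7.44 in pancreas (adjusted p = 0.0738). Lung was below every other library, and SI exceeded lung by 0.99 ± 0.28 (adjusted p = 0.0171), which was lost without lung replicate 1 (0.0508), lung replicate 2 (0.196) or SI replicate 1 (0.118). As a gene, *Bnip3* had an adjusted p of 0.158, of 0.0202 without SI replicate 2 and of 0.0378 with library size alone.

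*Vegfa*, the main vascular growth factor, varied little. Its promoter OCR (chr17:46032388-46032898) held 27.0 and 25.6 CPM in BM, 17.7 and 20.3 in LI, 25.9 and 19.4 in SI, 22.2 and 22.3 in lung and 23.4 and 23.9 in pancreas (adjusted p = 0.399). The SI libraries covered most of that range. As a gene it summed to 29.4 and 28.5 CPM in BM, 20.1 and 21.7 in LI, 28.7 and 20.9 in SI, 24.4 and 24.4 in lung and 25.9 and 27.3 in pancreas (adjusted p = 0.291).

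*Ddit4* (REDD1), an inhibitor of mTOR complex 1, had 9 called OCRs, but its sum was not called. The 13 OCRs together held 240 and 231 CPM in BM, 174 and 228 in LI, 190 and 202 in SI, 183 and 195 in lung and 185 and 195 in pancreas (adjusted p = 0.278). BM was above every other library. The strong promoter OCR (chr10:59951691-59952274), at 125 CPM per kb, held 95.2 and 90.1 CPM in BM, 51.5 and 70.4 in LI, 72.9 and 73.4 in SI, 70.3 and 70.7 in lung and 65.8 and 68.3 in pancreas (adjusted p = 0.0874). BM was again above all other libraries, by 0.60 ± 0.18 over LI (adjusted p = 0.0213), a call lost without BM replicate 1 (0.109), BM replicate 2 (0.0546) or LI replicate 1 (0.212).

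The called *Ddit4* OCRs lay in the intergenic stretches on both sides and differed in order. At +13.1 kb (chr10:59938434-59938934) the values were 2.06 and 1.52 CPM in BM, 8.63 and 6.39 in LI, 2.5 and 3.0 in SI, 1.76 and 2.1 in lung and 6.12 and 7.66 in pancreas. LI and pancreas were above all libraries of BM, lung and SI, and BM was lower than LI by -2.06 ± 0.35 (adjusted p = 0.000476). The +33.4 kb OCR was high in LI alone, with 2.99 and 2.35 CPM in BM, 8.11 and 6.60 in LI, 2.02 and 2.12 in SI, 1.84 and 3.37 in lung and 3.24 and 3.34 in pancreas. SI was lower than LI by -1.82 ± 0.38 (adjusted p = 0.00655).

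Nearer to *Ddit4*, the +4.3 kb OCR (chr10:59947255-59947755) was low in BM, with 6.61 and 5.75 CPM in BM, 14.7 and 17.2 in LI, 9.68 and 14.7 in SI, 9.37 and 11.5 in lung and 14.1 and 13.3 in pancreas. BM lay below every other library, 2.59-fold under LI (adjusted p = 0.00109). The +8.0 kb OCR had BM on top, with 8.81 and 5.02 CPM in BM, 2.70 and 3.95 in LI, 3.85 and 2.79 in SI, 2.55 and 2.13 in lung and 3.83 and 3.45 in pancreas. BM exceeded lung by 1.57 ± 0.37 (adjusted p = 0.0063), which was 0.134 without BM replicate 1 and 0.0866 without lung replicate 2.

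**Figure D4:**
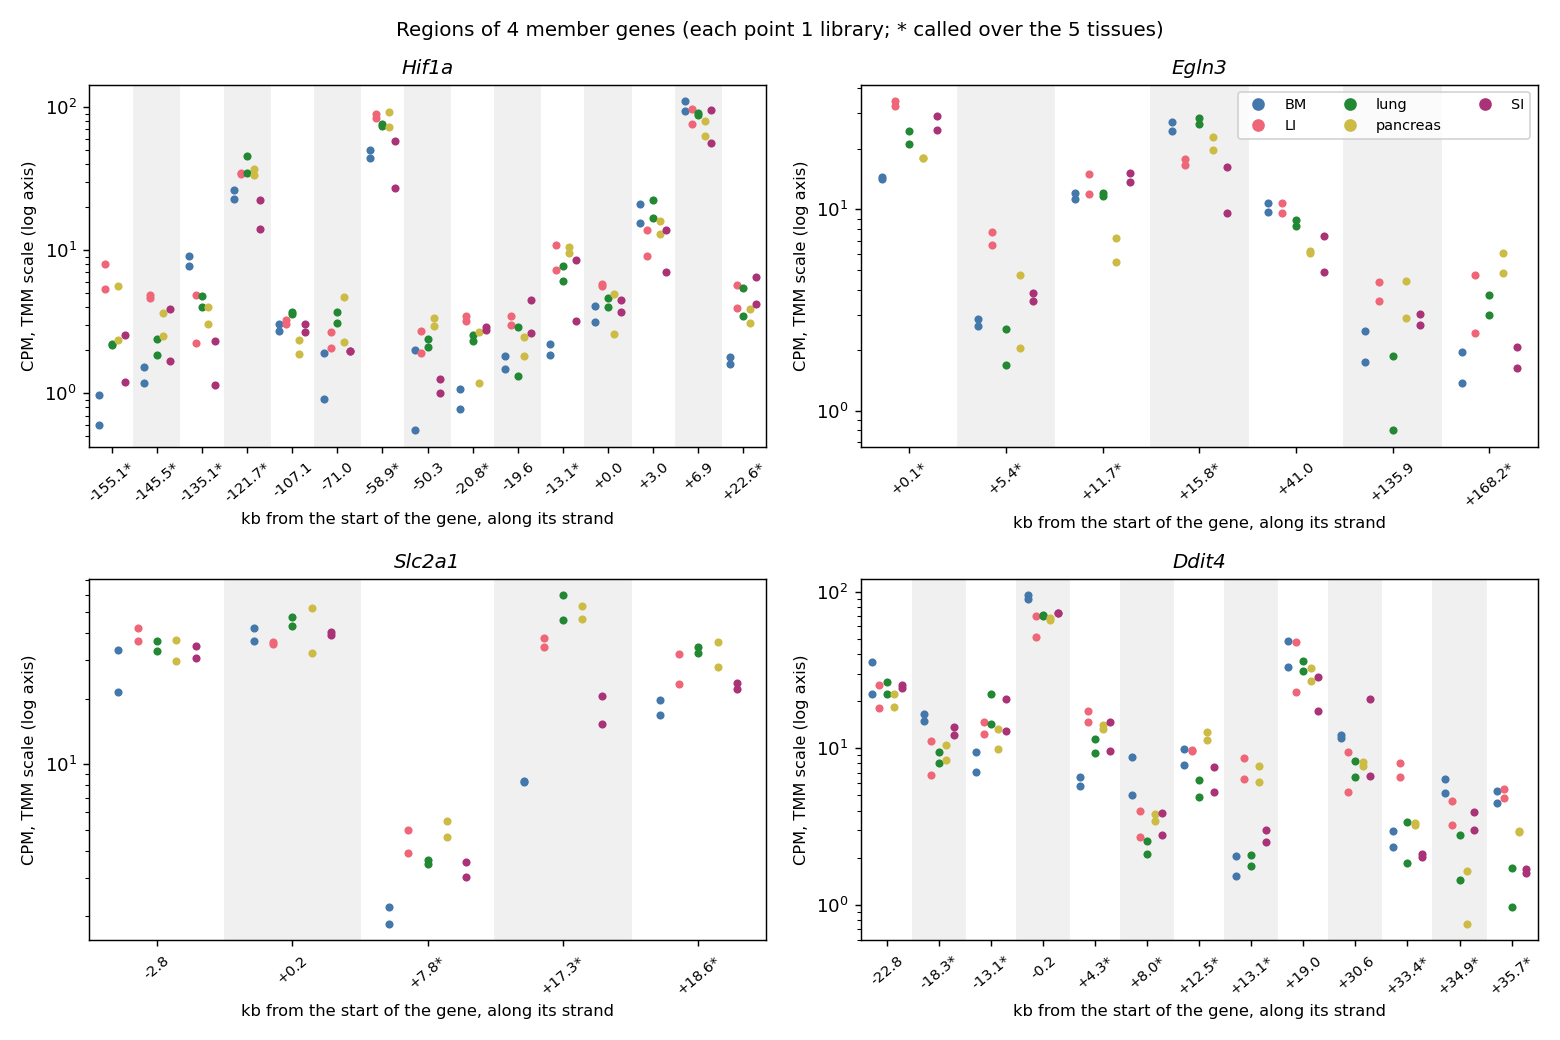
CPM (log axes) of the OCRs of *Hif1a*, *Egln3*, *Slc2a1* and *Ddit4*, ordered by kb from the start of each gene along its strand, with 1 point per library coloured by tissue and an asterisk at called OCRs. BM is lowest at most called *Hif1a* and *Slc2a1* OCRs, while the called OCRs of *Egln3* and *Ddit4* differ in which tissue is highest.

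An OCR was tissue-specific (TS) where all 4 contrasts of a tissue with the others had the same sign and an unadjusted p under 0.05. The share of all tested OCRs that met this in some tissue was not computed, with unadjusted or adjusted p. Of the 68 OCRs, 14 met this in some tissue, and 5 when each contrast had to pass an adjusted p. Without SI replicate 2 the count was 21. Lower in BM were 7, the *Epas1* -183.2 and -43.7 kb, *Hif1a* -155.1, -13.1 and +22.6 kb, *Slc2a1* +17.3 kb and *Ddit4* +4.3 kb OCRs, where 6.63% of all tested OCRs were lower in BM. Higher in LI were 4, the same *Epas1* pair, *Egln3* +5.4 kb and *Ddit4* +33.4 kb (all OCRs 1.3%). Higher in SI were the *Epas1* +29.1 and +45.3 kb OCRs (all OCRs 2.8%), and higher in BM the *Hif1a* -135.1 kb and *Ddit4* +8.0 kb OCRs (all OCRs 4.5%). The *Hif1a* -135.1 kb OCR was also lower in SI (all OCRs 3.59%), and the *Egln3* +11.7 kb OCR was lower in pancreas (all OCRs 0.572%). Only the *Epas1* +29.1 kb OCR was higher in both LI and SI than in the other 3 tissues (all OCRs 2.18%). The 5 that passed with adjusted p-values were the *Epas1* -183.2 and -43.7 kb, *Hif1a* -13.1 kb and *Slc2a1* +17.3 kb OCRs, lower in BM, and the *Egln3* +11.7 kb OCR.

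Between pairs of tissues (adjusted p under 0.05, edgeR), BM against LI called most of the 68 OCRs, and LI against lung, LI against pancreas, SI against LI and lung against pancreas the fewest. BM was lower than LI at 21 OCRs and higher at 8 (all OCRs called 30.9%, BM higher in 40.9% of these), 15 in all without BM replicate 1 and 18 without BM replicate 2 or LI replicate 1. BM was lower than lung at 14 and higher at 4 (all 19%, BM higher in 39.7%), in all 5 without BM replicate 1, 11 without BM replicate 2 and 6 without lung replicate 2. BM was lower than pancreas at 11 and higher at 4 (all 24.2%, BM higher in 40.8%), in all 8 without BM replicate 1, 10 without BM replicate 2 and 9 without pancreas replicate 2. SI was higher than BM at 15 and lower at 8 (all 25.8%, SI higher in 58.6%), 13 in all without BM replicate 1. Of the 21 OCRs lower in BM than in LI, 7 were of *Epas1*, 6 of *Hif1a* and 3 of *Slc2a1*. These 4 comparisons share the BM libraries.

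LI was higher than lung at 6 OCRs and lower at 1 (all 10.9%, LI higher in 75.1%), in all 3 without LI replicate 1, LI replicate 2 or lung replicate 2, 4 without lung replicate 1, 14 without SI replicate 1 and 12 without SI replicate 2. LI was higher than pancreas at 7 and lower at 0 (all 3.27%, LI higher in 61.7%), 1 in all without LI replicate 2 or pancreas replicate 1 and 3 without pancreas replicate 2. SI was lower than LI at 7 and higher at 0 (all 8.44%, SI higher in 18.2%), 3 in all without either LI library and 13 without SI replicate 2. Lung was higher than pancreas at 5 and lower at 2 (all 5.82%, lung higher in 27.8%), in all 1 without lung replicate 2, 3 without pancreas replicate 1 and 2 without pancreas replicate 2. SI was lower than lung at 7 and higher at 3 (all 21%, SI higher in 53%), in all 5 without lung replicate 2 and 6 without SI replicate 1. SI was lower than pancreas at 9 and higher at 8 (all 20.5%, SI higher in 41.3%), in all 9 without either pancreas library and 11 without SI replicate 1.

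By gene, the 7 OCRs higher in LI than in pancreas were 5 of *Epas1* and 2 of *Egln3*. Those higher in lung than in pancreas were 4 of *Epas1* and 1 of *Egln3*. Of the 8 higher in SI than in pancreas, 6 were of *Epas1*. The 7 lower in SI than in LI were 3 of *Hif1a*, 3 of *Ddit4* and 1 of *Slc2a1*. The split of the pairwise calls depended on scaling, over all OCRs as well. In brackets is the share of all called OCRs in which the first tissue was higher. With libraries scaled by size alone, LI was higher than lung at 4 and lower at 6 (45%). SI was higher than pancreas at 11 and lower at 4 (66.2%), and BM higher than lung at 3 and lower at 23 (24.4%). SI was higher than BM at 19 and lower at 6 (75.3%), and lung higher than pancreas at 6 and lower at 1 (59.2%). SI was higher than LI at 1 and lower at 5 (57.6%). With each library's dependence on GC content and width taken out, LI was higher than lung at 5 and lower at 4 (54.9%). SI was then higher than BM at 14 and lower at 12 (52.5%). BM was higher than pancreas at 6 and lower at 9 (47.1%), and SI higher than lung at 2 and lower at 11 (47.3%). For each OCR named by the rule given with the methods, the log2 difference of smallest p kept its sign under every setting. That contrast was picked for its small p, so a change of sign was unlikely, and other contrasts were not compared singly.

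The wider pathway was counted over 3 lists of genes. Of 14 other HIF regulators, 5 were called as genes (35.7%, all genes 41.4%), and 19 of their 54 OCRs (35.2%, all OCRs 44.2%). The 4 with the smallest p were *Arnt2*, a beta subunit paralogue, highest in lung and lowest in pancreas (2.24-fold, adjusted p = 0.00331), *Hif1an*, the asparaginyl hydroxylase (BM over LI 1.72-fold, 0.00584), *Rbx1*, a component of the VHL ligase (BM over LI 1.68-fold, 0.012), and *Ep300*, a coactivator (BM over pancreas 1.83-fold, 0.0134). Of 19 genes of glucose transport and glycolysis, 7 were called (36.8%), and 17 of their 69 OCRs (24.6%), and 5 of the 7 were highest in BM, as were 3133 of the 7241 called genes of the table. The median log2 difference of all gene sums was 0.16 for BM minus LI, 0.14 for BM minus lung and 0.18 for BM minus pancreas. The phosphoglycerate mutase *Pgam1* was highest in BM (1.82-fold over LI, adjusted p = 0.00598). The transporter *Slc2a3* was highest in pancreas (1.64-fold over SI, adjusted p = 0.00617). The regulator *Pfkfb4* was highest in BM (1.65-fold over LI, adjusted p = 0.0219) and the kinase *Pdk1* in lung (1.49-fold over SI, adjusted p = 0.0266).

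Of 28 further HIF targets with an OCR, 14 were called (50.0%), and 70 of their 132 OCRs (53.0%). The lysyl oxidase *Loxl2* was highest in lung (3.25-fold over SI, adjusted p = 8.9e-05), as was the lysyl hydroxylase *Plod2* (2.09-fold over BM, adjusted p = 0.00126). *Nos2*, the inducible nitric oxide synthase, was highest in SI (2.45-fold over lung, adjusted p = 0.00183). *Kdr*, a VEGF receptor that also marks endothelium and has no promoter OCR here, was highest in pancreas (1.96-fold over SI, adjusted p = 0.0022).

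Against the mean of the other 4 tissues, the median log2 difference of the 68 OCRs was -0.16 for BM, where that of all OCRs was 0.0015. It was 0.18 for LI (all 0.02), 0.11 for lung (all -0.0032), -0.04 for pancreas (all -0.02) and -0.02 for SI (all 0.03). Above 0 were 31 of the 68 OCRs for BM (all OCRs 50.1%), 43 for LI (all 52%), 46 for lung (all 49.6%), 31 for pancreas (all 48.3%) and 30 for SI (all 52.9%).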

How the data were processed

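The deposited values are raw counts per OCR, which the authors made by mapping reads with Bowtie2 2.2.9, calling peaks with MACS2 2.1.1 in each library, merging peaks kept in both libraries of a tissue and counting reads at each merged peak. The methods used here do not name removal of duplicate or mitochondrial reads or a shift for the transposase. Coordinates are as deposited, and starts were read as 0-based for sequences. From the counts, OCRs with at least 1 count were fitted with edgeR 4.0.16 (R 4.3.3, TMM, quasi-likelihood) over 10 libraries with tissue as the only factor. Values are CPM on the TMM scale, errors are SE of log2 fold changes, and "called" means an adjusted p under 0.05 over all OCRs (or genes). Gene sums used the same scale. A promoter OCR has its centre from 1000 bp before to 100 bp after a RefSeq TSS. Each library is a pool of mice, and p-values measure the spread between such pools. Counts without molecular identifiers are not independent molecules.

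Named were each gene, its promoter OCR with most counts, its OCR of smallest p, its TS OCRs, at most 4 genes per list and the 5 genes most like *Epas1*. OCRs named beyond this were chosen after their values were seen. The members and lists were chosen with earlier results of these data known. Alternatives were library size alone, DESeq2 size factors, DESeq2 1.42.0, a filter of 10 counts in 2 libraries, the replicate block, a GC and width offset, and each library left out, and for some results fits of 4 libraries, inside-gene or nearest-TSS assignment and adjusted p-values for TS OCRs. Gene sums on their own TMM scale and the list counts were added after seeing the data. The edgeR fit of OCRs was also run on counts simulated from its own model and dispersions. Such counts cannot show how the tests behave where that model does not hold.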

Additional observations from a re-analysis of the deposited data

How the results depend on the processing

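Of the 68 OCRs, 37 were called. With the gene's own interval as the sole criterion, which leaves 26 OCRs, 15 were called. The share of all OCRs called by that criterion was not computed. The counts of calls changed with 1 library left out. Shares of all OCRs were not computed for these fits, for fits of 4 libraries or for the replicate block. Nor was the share of calls kept under every setting, so these counts describe the member and list OCRs alone. Pairwise calls (140 in all) ran from 92 to 172, for BM and LI from 15 to 33, BM and lung 5 to 24, BM and pancreas 8 to 21, SI and BM 13 to 24, LI and lung 3 to 14, LI and pancreas 1 to 7, SI and LI 3 to 13, lung and pancreas 1 to 8, SI and lung 5 to 13, and SI and pancreas 9 to 19. Fits of the 4 libraries of a comparison called 17 for LI and lung, 2 for SI and LI and 10 for SI and pancreas, where the spread comes from fewer samples. The 14 TS OCRs became 12 to 21 with a library left out and 5 with adjusted p-values. Called genes (5) ran from 3 to 7, and OCRs of the 3 lists (106) from 72 to 126. Leaving out a library leaves its tissue with 1, whose spread is assumed like that of the others. The named log2 differences counted next are 1 per OCR, at its contrast of smallest p in the main fit. Of 459 other values of the named log2 differences, 443 kept direction and call, 14 lost and 2 gained the call, and 0 reversed. Of 160 gene p-values, 21 lost and 6 gained it. The causes were not tested.

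Scaling by library size alone shifted the median of all OCRs by -0.21 on the log2 scale for BM minus lung, 0.20 for SI minus BM, -0.25 for LI minus lung, 0.24 for SI minus LI, 0.25 for lung minus pancreas and 0.24 for SI minus pancreas. The GC and width offset shifted it by 0.20 for BM minus LI, 0.16 for BM minus pancreas, -0.11 for SI minus BM, -0.16 for LI minus lung and 0.11 for lung minus pancreas. TMM factors of the gene sums shifted the median of all genes by -0.16 for BM minus LI, -0.13 for BM minus lung and -0.17 for BM minus pancreas. The *Egln3* gene call was lost with library size alone (adjusted p = 0.0648), DESeq2 size factors (0.068) and the replicate block (0.0669), and that of *Ldha* with library size alone (0.0578) and TMM factors of the gene sums (0.0837). Between tissues, the differences of replicate 1 from replicate 2 had correlations over OCRs of -0.22 to 0.20. These values cannot show whether same-numbered libraries share mice or days, which is not stated, and libraries were treated as unpaired. With the replicate block 41 OCRs, 149 pairwise differences, 15 TS OCRs, 4 genes and 107 list OCRs were called. Tests with 2 libraries per tissue leave weak OCRs of few counts with wide errors.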
